A study of Mus musculus with 2 samples.

Results

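The genes described here encode 10 microtubule-associated proteins and doublecortins of the mouse, Map1a, Map1b, Map1s, Map2, Map4, Map6, Mapt, Dcx, Dclk1 and Dclk2. They were chosen by symbol, as a list of neuronal and general structural proteins of microtubules, and the rule that defines the list uses no measured value. They are 10 of the 45578 genes and hold 94 of the 109463 annotated transcripts in the table of ribosome footprint counts. All 10 were found under 1 gene identifier each, and all 10 passed the minimum mean count of 10 that a gene needed to be tested.

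Ribosome profiling reads the stretch of mRNA that a ribosome protects from nuclease, so a footprint count reflects both how much of an mRNA is on ribosomes and how long its coding sequence is. The footprints came from polysomes, the sucrose gradient fractions with several ribosomes on an mRNA, of brains taken at postnatal day 5. Both libraries were labelled control and formed a single group with 2 biological replicates, so the study offers no contrast between conditions, and the values below describe levels and the spread between the replicates. The mice had the genotype Smn+/-; SMN2tg/0 on a congenic FVB background: 1 of the mouse Smn alleles was disrupted and a human SMN2 transgene was present in the heterozygous state. Both libraries shared these alleles, so the animals were controls of a spinal muscular atrophy model and not wild type.

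Microtubule-associated proteins bind along the microtubule lattice and set its stability and spacing. In neurons, MAP2 lies mainly in dendrites and tau mainly in axons, MAP1B is known from growing axons and MAP1A from maturing neurons. Doublecortin and its kinase relatives bind between protofilaments through paired doublecortin domains and are known for the migration of new neurons and the growth of their processes.

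The libraries held 1866831 footprints in replicate 1 and 5261878 in replicate 2, so replicate 2 was 2.82 times deeper. The 10 genes took 0.796% of replicate 1 (95% Clopper-Pearson interval 0.783 to 0.809) and 0.725% of replicate 2 (0.717 to 0.732), a mean of 0.760% ± 0.0502 (SD, n = 2). Intervals here cover counting error only, and PCR duplicates make footprints less independent than they assume. Every list of brain cell markers was detected, with none of the 20 neuronal, 12 astrocyte and radial glia, 12 oligodendrocyte lineage, 10 microglia, 10 endothelial or 10 dividing-cell markers at 0. The summed level of the neuronal markers was 12359 CPM (counts per 1000000 footprints) in replicate 1 and 8951 in replicate 2, while the summed level of the dividing-cell markers was 497 and 629 CPM. The sums for astrocyte and radial glia markers were 5368 and 4512 CPM, and for oligodendrocyte lineage markers 1238 and 1459. Microglia markers summed to 306 and 299 CPM, and endothelial markers to 358 and 347. In whole brain, fewer cells of a type and less RNA per cell cannot be told apart. The replicate ratio also moved with coding density over all coding genes, as described below, and its part in these sums was not tested.

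Levels were compared between genes as coding density, which is CPM per kilobase of the longest annotated coding sequence of the gene. Mapt, which encodes tau, had the highest coding density, followed by Dcx, Dclk1, Map2 and Map1b, then Map6 and Map4, then Dclk2, Map1a and Map1s. All 10 lay above 23.5, the median of the 13317 coding genes tested. Mapt had 18.9 times the mean density of Map1s. Between neighbours in this order, only the replicate ranges of Map6 and Map4 overlapped, and 44 of the 45 pairs of the 10 genes were separated. That share is close to the background, since 90.2% of all pairs of tested coding genes were separated in the same way.

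**Figure D1:**
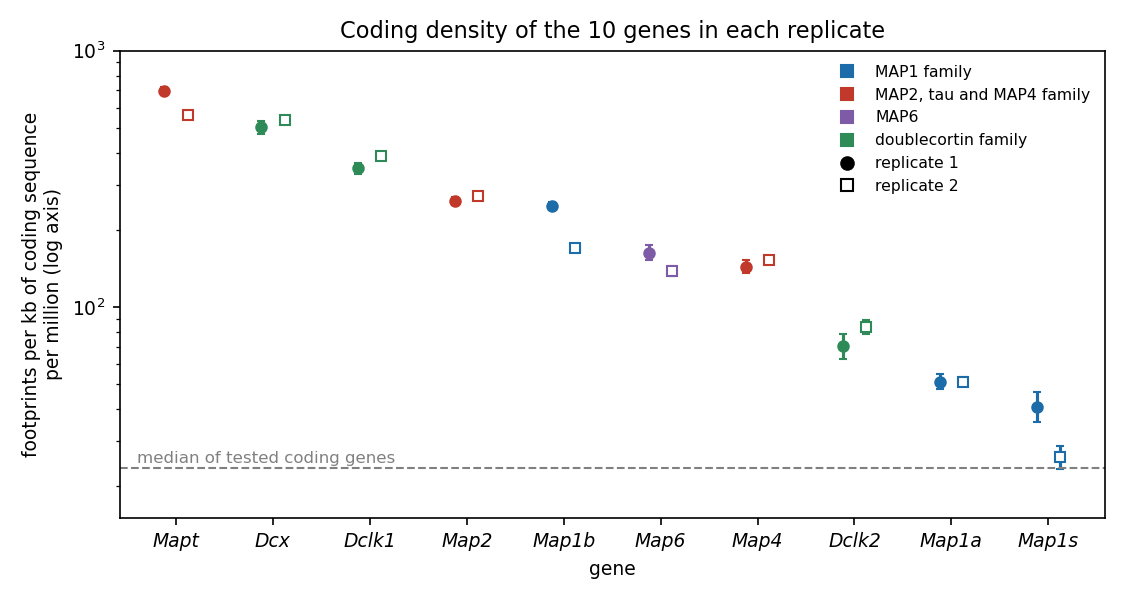
Coding density of each gene on a log axis, in CPM per kilobase of the longest annotated coding sequence, with filled circles for replicate 1, open squares for replicate 2 and bars for the 95% counting interval. Genes are ordered by mean density from Mapt at 629 to Map1s at 33.3, and the dashed line marks the median of tested coding genes at 23.5.

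In the MAP1 family, whose members are made as precursors that are cut into heavy and light chains, Map1b was the abundant gene. Map1b (ENSMUSG00000052727) had 1830 CPM in replicate 1 and 1255 in replicate 2, from 3416 and 6602 footprints. Its single annotated transcript, Map1b-201, drew more footprints than any other transcript of the whole table in both libraries, ahead of the beta-tubulin transcript Tubb2b-201 with 3393 and 5083. That position rests on length as well as level. Its coding sequence of 7395 nucleotides is longer than those of 98.5% of tested coding genes. The position also rests on Map1b having 1 annotated transcript, so that its footprints are not divided. With counts summed by gene, Map1b ranked 11th in replicate 1 and 17th in replicate 2. Per kilobase, Map1b stood at a coding density of 247 and 170, a mean of 209 ± 55.0 (SD, n = 2), which is the 93.5th percentile.

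Map1a (ENSMUSG00000027254), the heavy chain gene of mature neurons, had 461 CPM in each replicate, with an SD of 0.536 (n = 2). Its coding sequence of 9045 nucleotides is the longest of the 10, and its coding density was 50.9 and 51.0. Map1b thus had the higher coding density of the pair in both libraries, with ranges that did not overlap. Map1s (ENSMUSG00000019261), the short and broadly expressed member known for links to mitochondria and autophagy, had 222 and 397 footprints and a coding density of 40.7 and 25.8. Its replicate 2 value was the closest of all to the median gene.

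Mapt (ENSMUSG00000018411) belongs with Map2 and Map4, which share tandem microtubule-binding repeats near the carboxyl end. It had 2917 footprints in replicate 1 and 6666 in replicate 2, or 1563 and 1267 CPM. Its coding density was 694 and 563, a mean of 629 ± 92.9 (SD, n = 2), above 99.02% of tested coding genes. Map2 (ENSMUSG00000015222), the dendritic protein, had 1422 and 1489 CPM and a coding density of 259 and 271. Map4 (ENSMUSG00000032479), the relative found in most dividing and non-neuronal cells, had 619 and 660 CPM and a coding density of 143 and 153. Both Map2 and Map4 varied less between the replicates than Mapt did. Map6 (ENSMUSG00000055407), which encodes the STOP protein that keeps microtubules stable in the cold, had 442 and 374 CPM and a coding density of 163 and 138.

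In the doublecortin family, Dcx (ENSMUSG00000031285), the gene of migrating neuroblasts whose loss gives lissencephaly in humans, had 1032 and 3114 footprints. With a coding sequence of only 1101 nucleotides its coding density was 502 and 538, a mean of 520 ± 25.0 (SD, n = 2). Dclk1 (ENSMUSG00000027797), which adds a serine/threonine kinase domain to paired doublecortin domains, had 1473 and 4647 footprints and a coding density of 347 and 389. Dclk2 (ENSMUSG00000028078), the related kinase, had 297 and 999 footprints and a coding density of 70.1 and 83.6. The order Dcx, Dclk1, Dclk2 held in both libraries with no overlap, and Dclk1 stood above Dcx in CPM, at 789 and 883 against 553 and 592, but below it per kilobase.

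The density depends on which length is used, since several genes have short and long forms. Mapt stayed first under all 5 other choices of length or transcript. Each choice sums counts over a gene's transcripts, of which Map1b has 1, Mapt 12 and Map2 24. Whether a fragment shared by several transcripts was counted once is not given in the sources used here, so the order between such genes is uncertain. With the median coding length of the gene's coding transcripts, Map2 reached 1038 and Map4 733, and the order became Mapt, Map2, Map4, Dclk1 and Dcx. With coding lengths weighted by counts, Dclk1 at 539.6 and Map2 at 532 stood above Dcx. With the longest transcript length in place of coding length, Dclk2 at 21.7 was the lowest and Dcx, whose 3′ untranslated region is long, came seventh.

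The transcripts were then compared within each gene. The table assigned counts to whole annotated transcripts, and how a fragment shared by several transcripts was assigned is not given in the sources used here, so a transcript value describes the fragments placed on it and not a measured isoform level. Of the 94 transcripts, 64 were protein coding and 30 had other biotypes, and 33 held at least 10% of their gene's footprints.

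Map2 showed a long form with many more fragments than any single short form. Map2-001, with a coding sequence of 5487 nucleotides that corresponds to the high molecular weight protein, held 921 footprints in replicate 1 and 2216 in replicate 2. The 6 short forms with complete annotation, of 1401 to 1497 coding nucleotides, held 106 to 156 footprints in replicate 1 and 375 to 449 in replicate 2. Together these 6 held 780 and 2501 footprints, 29.4% and 31.9% of the gene, fewer than Map2-001 in replicate 1 and more in replicate 2. Against the medians of the single short forms, 129.5 and 430, the long form had 7.11 and 5.15 times as many footprints, on a coding sequence 3.91 times as long. The surplus of 791.5 and 1786 footprints over the 4083 additional coding nucleotides comes to 194 and 437 per kilobase, compared with 92.0 and 289 per kilobase on the short coding sequences. In both libraries this surplus per kilobase was higher than the footprints per kilobase on a single short coding sequence. Fragments from sequence common to all forms could be placed on any of them, so these figures are per annotated transcript. They do not show that the additional stretch was denser than the common sequence.

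Transcript by transcript, Mapt gave the opposite picture. Mapt-002 and Mapt-003, with coding sequences of 2202 and 2250 nucleotides, held 376 and 386 footprints in replicate 1 and 860 and 899 in replicate 2. The 3 shorter forms, Mapt-001, Mapt-006 and Mapt-007, with 1119, 1173 and 1293 coding nucleotides, held 565, 444 and 423 footprints in replicate 1 and 1170, 1024 and 967 in replicate 2. Each longer form therefore had fewer footprints than each shorter one in both libraries. Together the shorter group held 49.1% and 47.4% of the gene, and the longer pair 26.1% and 26.4%. The longer transcripts are annotated without untranslated regions, which the shorter ones have.

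For Map1a, the 2 coding transcripts were nearly equal, with 434 and 416 footprints in replicate 1 and 1217 and 1177 in replicate 2. For Map4, Map4-001 and Map4-002 held the most, 249 and 219 footprints in replicate 1 and 705 and 709 in replicate 2. The Map4 transcript with the longest coding sequence, Map4-005 of 4322 nucleotides, held only 47 and 147, so the coding density of Map4 rests on a length that few of its footprints were assigned to. Divided by the coding length of Map4-001 instead, the density of Map4 was 189, above that of Map6.

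Map6 footprints lay on 3 coding transcripts and 1 retained-intron transcript. Map6-001, with 2721 coding nucleotides, held 244 and 582 footprints, Map6-003, with 1530, held 219 and 498, and Map6-201, with 921, held 118 and 322. The retained-intron transcript Map6-002 held 245 and 568, which was 29.7% and 28.8% of the gene. Map6-004, a processed transcript, was at 0 in both libraries, which allows up to 3 counts per library.

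Dcx footprints were spread over 6 transcripts with like counts, the most on Dcx-001 with 18.2% and 19.0% of the gene. Dcx-001 and Dcx-003 have the same coding length of 1101 nucleotides and 3′ untranslated regions that differ by 5940 nucleotides. They held 188 and 168 footprints in replicate 1 and 593 and 544 in replicate 2. The long 3′ untranslated region thus went with few additional footprints. Retained-intron transcripts Dcx-004 and Dcx-005 held 31.5% and 30.1% of the gene in replicates 1 and 2.

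Dclk1 divided into full-length and short forms. The full-length transcripts Dclk1-001 and Dclk1-201, with 2220 and 2271 coding nucleotides, held 34.6% of the gene in replicate 1 (95% interval 32.2 to 37.1) and 32.6% in replicate 2 (31.2 to 33.9). The 6 transcripts of 1149 to 1359 coding nucleotides held 34.8% (32.3 to 37.3) and 39.6% (38.2 to 41.1). Dclk1-002, of 1092 coding nucleotides, held 13.1% and 11.3%. Short forms of this gene are known that carry only the doublecortin domains or only the kinase domain. In Dclk2, Dclk2-001 held 31.6% of the gene in replicate 1 (26.4 to 37.3) and 23.2% in replicate 2 (20.6 to 26.0). Dclk2-001 and Map2-001 were the only transcripts, among the 31 with at least 10% of a gene that has over 1 transcript, whose shares had intervals that did not overlap between the replicates. By the same rule 0.815% of 32153 transcripts of all tested genes did so. The share of Map2-001 was 34.7% (32.9 to 36.5) and 28.3% (27.3 to 29.3).

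**Figure D2:**
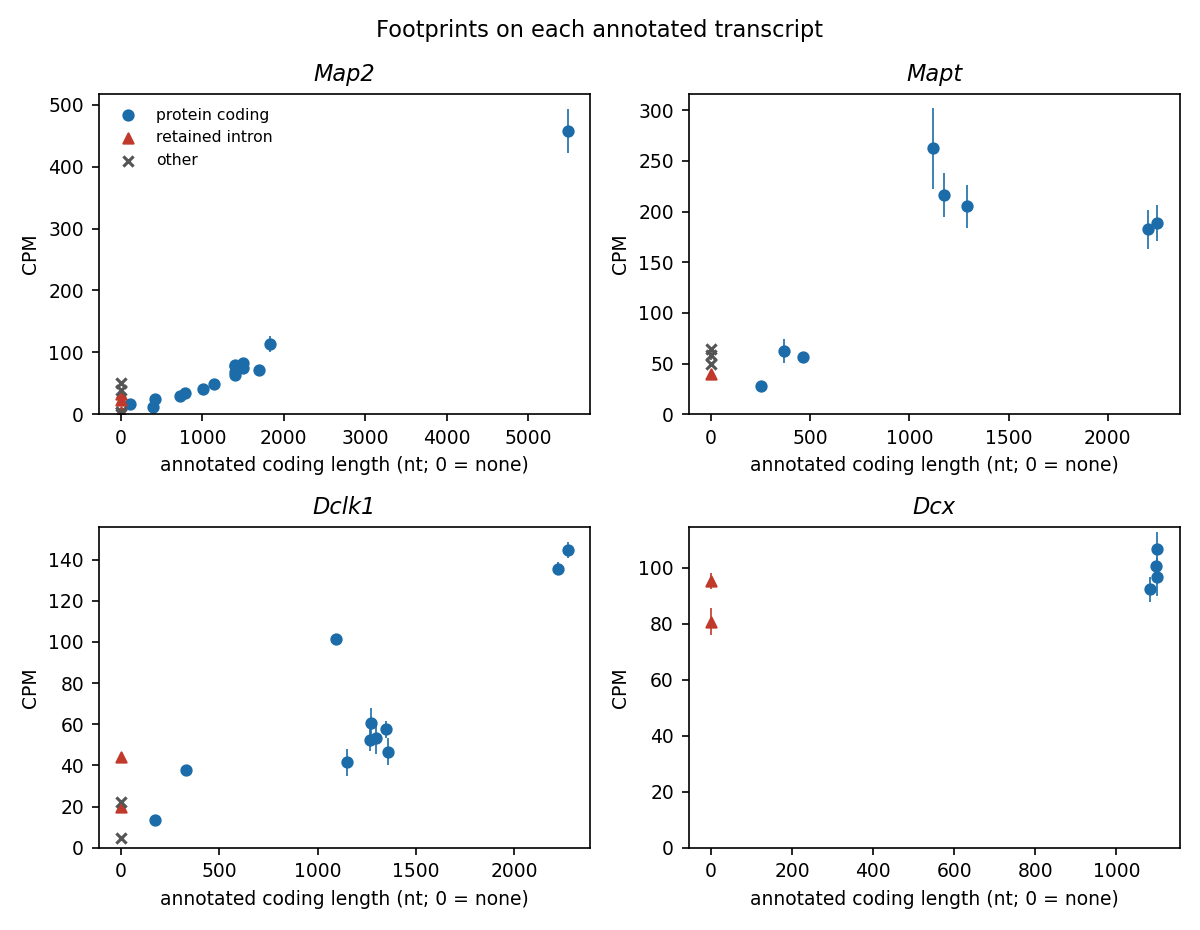
Footprint level in CPM of every annotated transcript of Map2, Mapt, Dclk1 and Dcx against its annotated coding length in nucleotides, where 0 means that none is annotated; points are means of the replicates, and vertical lines join replicates 1 and 2. Map2-001, at 5487 nucleotides, stands far above the other Map2 transcripts, while Mapt-002 and Mapt-003, at 2202 and 2250 nucleotides, lie below the 3 shorter forms named in the text.

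Transcripts with a biotype other than protein coding held 10.7% of the 10 genes' footprints in replicate 1 and 11.6% in replicate 2, a mean of 11.1% ± 0.599 (SD, n = 2). Among 8039 tested genes that have both kinds of transcript, the median share per gene was 26.8%. The 11.1% is pooled over the footprints of all 10 genes, Map1b and Map1s included, so it is not a like measure. Dcx at 30.8% ± 1.01 and Map6 at 29.2% ± 0.586 were above that median, and Mapt at 15.1%, Dclk2 at 14.9%, Dclk1 at 10.9%, Map2 at 10.8%, Map4 at 8.82% and Map1a at 1.28% were below it. Map1b and Map1s have no such transcript. The Dclk2 share includes Dclk2-005, of the nonsense-mediated decay biotype, which has 1926 annotated coding nucleotides and held 12.1% and 14.2% of the gene. Transcripts of a gene can share exons, so these footprints need not come from the molecule they were placed on.

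Promoters of 8 of the 10 genes were found in the RefSeq table of build GRCm38.p6, which lists 11 starts for them, with Map6 and Mapt not listed. The 100 bases upstream of 4 starts are shown, those of the most heavily covered transcript, of the first doublecortin start and of both Dclk1 starts, because the Map1b and Dcx windows hold the TATAAA motif and the Dclk1 windows mark alternative starts of a gene with long and short forms. They lie at chr13:99516603-99516702 on the minus strand, chrX:143933220-143933319 on the minus strand, and chr3:55242264-55242363 and chr3:55461628-55461727 on the plus strand. Each is written 5′ to 3′ and ends at the base before the start, with CG dinucleotides in capitals.
Map1b: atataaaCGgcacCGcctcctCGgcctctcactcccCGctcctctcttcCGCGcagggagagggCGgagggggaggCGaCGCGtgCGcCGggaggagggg
Dcx start 1: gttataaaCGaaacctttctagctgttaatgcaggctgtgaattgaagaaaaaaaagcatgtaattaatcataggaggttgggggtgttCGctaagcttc
Dclk1 start 1: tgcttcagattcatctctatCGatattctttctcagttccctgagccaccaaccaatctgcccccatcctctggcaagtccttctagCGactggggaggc
Dclk1 start 2: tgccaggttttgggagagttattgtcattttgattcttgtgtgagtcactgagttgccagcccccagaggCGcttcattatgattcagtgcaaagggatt
The Map1b window holds many CG dinucleotides and the others few. Over 250 upstream bases the counts were 19 for Map1b, 3 for Dcx and 4 for each Dclk1 start, compared with a median of 6 over the 32851 windows of the table. Map2 had 34. The motif TATAAA, searched on both strands of the same 250 bases, was in 3 of the 11 windows of the genes and in 12.4% of all windows. The 3 windows were that of Map1b and both of Dcx. The Dcx starts are only 95 bases apart, so the site shown for start 1 lies in both windows and is counted for each. The Dclk1 starts are 219364 bases apart. A match is a description of the letters only, and the footprint counts do not measure promoter use.

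The spread between the replicates was then tested gene by gene. Each gene's pair of counts was compared with an exact binomial test against the ratio of library sizes scaled by TMM (trimmed mean of M values), with Benjamini-Hochberg adjustment over the 16427 genes tested. This test covers counting noise alone, so a call says that the libraries differed by more than counting allows, not that a condition had an effect. It called 17.4% of all genes, 11.5% lower and 5.95% higher in replicate 2. Of the 10 genes, 4 were called and all 4 were lower in replicate 2, Map1b, Map1s, Mapt and Map6. All 10 had a mean count of at least 100. Of the 8060 genes that did, 34.0% were called, with 1837 genes called lower in replicate 2. The median log2 ratio of replicate 2 over replicate 1 was -0.09 over the 10 genes and 0.01 over all genes. TMM shifted every log2 ratio by -0.13 against library totals.

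Map1s differed most. Its 119 CPM in replicate 1 and 75.4 in replicate 2 gave a log2 ratio of -0.78 (95% interval -1.02 to -0.54, exact binomial adjusted p = 1.24e-08). For Map1b the log2 ratio was -0.67 (-0.73 to -0.61, exact binomial adjusted p = 6.47e-99). For Mapt it was -0.43 (-0.49 to -0.37, exact binomial adjusted p = 6.16e-37), and for Map6 -0.37 (-0.49 to -0.25, exact binomial adjusted p = 5.87e-08). All 4 were also below 0 with library totals, at -0.65, -0.54, -0.30 and -0.24 in the same order.

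The other 6 genes were not called. Dclk1 had a log2 ratio of 0.04 (-0.05 to 0.12) and Dclk2 of 0.13 (-0.06 to 0.32). Dcx at -0.03, Map4 at -0.03, Map2 at -0.06 and Map1a at -0.12 lay just below 0 with TMM and just above it with library totals, at 0.10, 0.09, 0.07 and 0.00. With library totals 19.0% of all genes were called and 7.47% were called lower in replicate 2, and Dclk1 and Dclk2 were called higher as well, with log2 ratios of 0.16 and 0.25. Map1s and Map1b thus had the lowest ratios of the 10 and Dclk2 and Dclk1 the highest, and the difference between the families was not tested. The MAP1 family took 0.241% and 0.179% of the libraries, the Map2, Mapt and Map4 group 0.3604% and 0.342%, Map6 0.0442% and 0.0374%, and the doublecortin family 0.150% and 0.166%.

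**Figure D3:**
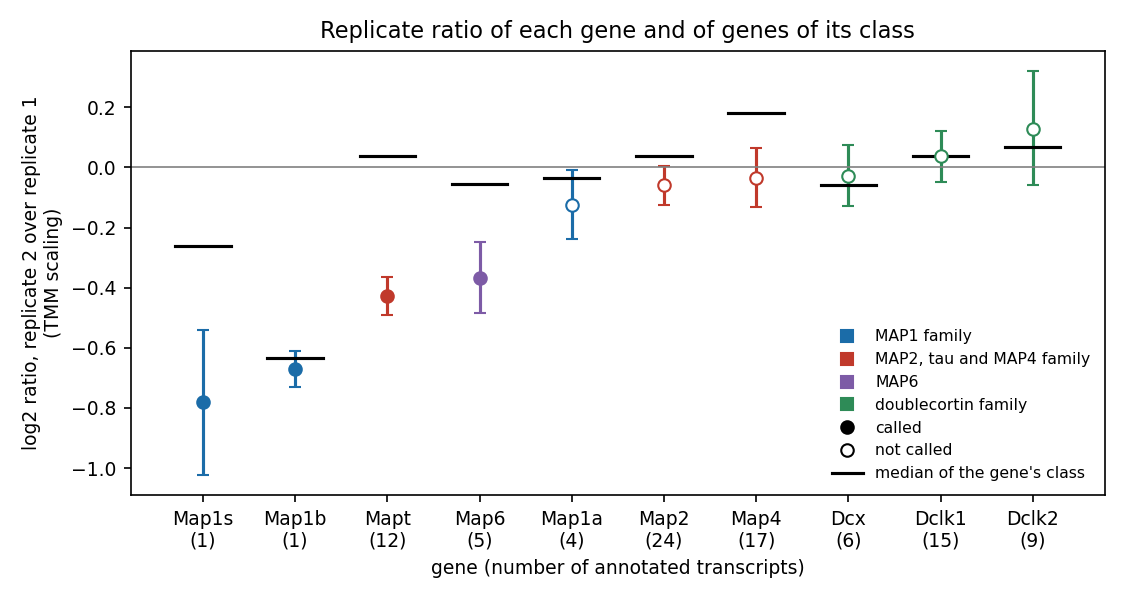
Log2 ratio of replicate 2 over replicate 1 for each gene under TMM scaling, with 95% counting intervals, filled points for called genes and the number of annotated transcripts in parentheses; the black line is the median of coding genes of like density and transcript number. Map1b at -0.67 lies on the line of its class, at -0.63, while Map1s at -0.78 and Mapt at -0.43 lie well below theirs.

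Features shared by these genes moved with the ratio across the whole table. When tested coding genes were put in 10 classes of equal size by coding density, 58.3% of the densest class were called, with a median log2 ratio of -0.27, compared with 0.21 in the least dense class. The ratio also moved with the number of annotated transcripts: within the densest class its median was -0.63 for genes with 1 transcript and 0.04 for genes with over 10. Map1b has 1 transcript and lies in the densest class, where 86.6% of the 322 genes with 1 transcript were called lower, and its ratio differed from the median of those genes by only -0.04. Map1s, also with 1 transcript, lies in the sixth class and was -0.52 below the median of its 320 like genes, at their 3.28th percentile. Mapt, with 12 transcripts, was -0.47 below its class median, at the 0.439th percentile of 114 genes. Map6 was -0.31 below its class median. The part of density and transcript number in the ratios was not tested further.

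**Figure D4:**
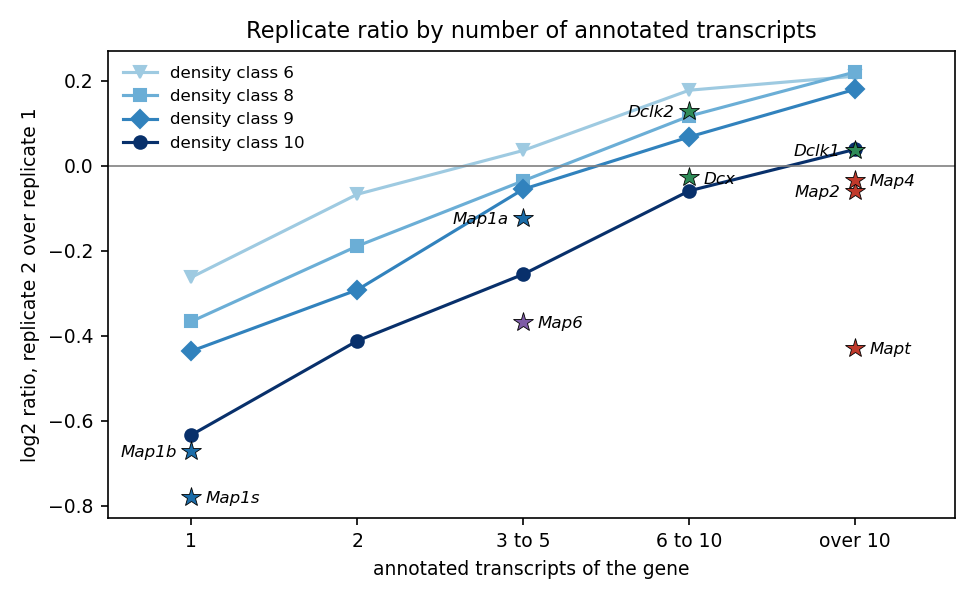
Median log2 ratio of replicate 2 over replicate 1 against the number of annotated transcripts, for coding genes of the sixth, eighth, ninth and densest of 10 classes of coding density, with stars for the 10 genes. The lines climb from left to right, in the densest class from -0.63 to 0.04, and Map1b lies on that line whereas Mapt lies far under it.

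Neuronal markers were mostly lower in replicate 2, as the called genes were. Of 20 neuronal markers, 16 were called lower and 1 higher, beside 11.5% and 5.95% of all genes, with a median log2 ratio of -0.56. Their median coding density was 383, and in the densest class of coding genes 697 of 1332 were called lower. Of 12 astrocyte and radial glia markers 6 were called lower and 0 higher, with a median of -0.26, and of 10 microglia markers 2 lower and 1 higher, with a median of -0.33. The 12 oligodendrocyte lineage markers had 4 called in each direction and a median of 0.01, and the 10 endothelial markers 1 called lower, 0 higher and a median of 0.20. Dcx, Dclk1 and Dclk2, which are also known from neurons, were at -0.03, 0.04 and 0.13 and were not called. Of 10 dividing-cell markers 2 were called higher and 0 lower, with a median of 0.28. The part of these markers in the replicate ratios of the 10 genes was not tested.

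By transcript, 87 of the 94 passed the minimum and 12 were called, all lower in replicate 2. Of all 43655 transcripts tested, 5.08% were called, 4.26% lower and 0.815% higher. With library totals 9 of the 87 were called, and the share of all transcripts called at that setting was not computed, so this 9 has no background beside it. The transcripts called with TMM were Map1b-201, Map1s-201, Map2-001, 6 of the 12 of Mapt and 3 of the 5 of Map6. All 12 Mapt transcripts had a ratio below 0, from -0.68 for Mapt-012 to -0.15. Fragments from shared sequence could be placed on any of them, so the common sign does not show which forms differed. Within Map2, by contrast, Map2-001 had a log2 ratio of -0.35 (exact binomial adjusted p = 8.47e-08), while the other 23 transcripts together, with 1734 and 5619 footprints, had a log2 ratio of 0.07 (-0.00 to 0.15). Of those, 10 of the 22 tested had a ratio below 0. Map2-001 lies in the densest of 10 classes of tested transcripts by footprints per nucleotide, whose median log2 ratio was -0.24, and the 6 complete short forms lie in the eighth class, whose median was 0.01, so density moved with this difference and its part was not tested. Within Dclk1, the 6 forms of 1149 to 1359 coding nucleotides had a log2 ratio of 0.23 (0.08 to 0.37) and the full-length pair -0.05 (-0.20 to 0.10). The other short coding forms, Dclk1-002, Dclk1-003 and Dclk1-012, were at -0.17, -0.13 and -0.07. Of the 15 Dclk1 transcripts, 0 were called.

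Other genes of the microtubule pathway were examined in 5 lists with 81 genes, of which 76 were tested and 28 were called. Of all genes 17.4% were called, 11.5% lower and 5.95% higher in replicate 2. That share depends on the minimum count. With a minimum mean count of 100, 34.0% of all genes and 30 pathway genes were called. The number of pathway genes tested at that minimum is not given here. Differences between the lists were not tested. Their median coding density ranged from 5.22 for severing and destabilizing proteins to 105 for kinases and phosphatases. Over all coding genes the median log2 ratio was 0.21 in the least dense class and -0.27 in the densest. The part of density in the medians of the lists was not tested. Among other structural proteins and doublecortin-domain genes, 17 of 22 were tested, with 3 called lower, 0 called higher and a median log2 ratio of 0.02 (0.15 with library totals). The share called, 17.6%, was near that of all genes. The densest of them were Map1lc3a and Map1lc3b, autophagy proteins first found as MAP1 light chains, with coding densities of 596 and 515 for Map1lc3a and 302 and 306 for Map1lc3b. Map1lc3a was lower in replicate 2, with a log2 ratio of -0.34, as was Map7d1, a MAP7 relative that works with kinesin-1, at -0.38.

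Of 19 proteins that bind microtubule ends, 5 were called higher and 2 lower in replicate 2, with a median of 0.12 (0.25 with library totals). Ckap5, a microtubule polymerase, had a log2 ratio of 0.65 and Clasp1, a rescue factor, of 0.51. The end-binding proteins Mapre2, at a coding density of 418 and 463, and Mapre1, at 288 and 265, were the densest. Of 9 severing and destabilizing proteins, 2 were called higher and 0 lower, with a median of 0.50 (0.63 with library totals). These were Kif2a, a kinesin that depolymerises microtubules, at 0.34, and Fign, a severing ATPase, at 1.48 from only 10 and 91 footprints. Katnal1, a katanin subunit, had a coding density of 43.8 and 44.0.

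In the LIS1 and neuronal migration list, 4 of 12 genes were called lower and 2 higher, with a median of -0.06 that became 0.06 with library totals. Ywhae, a 14-3-3 protein that protects phosphorylated NDEL1, had the highest coding density at 1664 and 1282 and was lower in replicate 2 at -0.50, and Dynll1, a dynein light chain, stood at 1240 and 1019. Ndel1 itself, a LIS1 partner, was higher at 0.53. Of 19 kinases and phosphatases that act on these proteins, 9 were called lower and 1 higher, with a median of -0.20 that became -0.07 with library totals. Cdk5r1 and Cdk5r2, which activate the tau kinase Cdk5, were both lower in replicate 2, at -0.63 and -0.85. Ppp2ca, the catalytic subunit of the tau phosphatase PP2A, had a coding density of 308 and 263.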

How the data were processed

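Per the labels' protocols, polysomal fractions of pulverised brain were treated with RNase I, and protected fragments were size selected, ligated, circularised and sequenced. The authors deposited raw whole-number counts per annotated transcript with 1 column per replicate and the lengths of each transcript. The submitters' processing notes name Trimmomatic 0.36, Bowtie2 2.2.6, SAMtools and GRCm38.p4, with no role stated. The annotation release and the treatment of strand, duplicates and multiply matching fragments are not given in the sources used here, so genes with near-identical copies and overlapping or antisense genes are uncertain. Matched RNA was not analysed here, so no translational efficiency is given.

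Counts were summed over each gene's transcripts with Python 3.11.15. Levels are CPM, counts per 1000000 footprints of the library, and log2 ratios used a prior of 0.5 CPM, TMM factors of 0.957 and 1.04 came from edgeR 4.0.16, and exact binomial p-values came from scipy 1.17.1, with a threshold of 0.05 after adjustment. Intervals are 95% Clopper-Pearson. With 1 group there is no contrast, so edgeR's quasi-likelihood test could not be used. The binomial test was tested on simulated data with counting noise alone, as the test assumes, so that run does not cover spread between replicates. Whether the replicates were separate animals is given only as biological replicate in the labels. The members, the marker and pathway lists and the tests were chosen with earlier results of these data known. Named genes were all 10 members with each transcript of at least 10% of its gene, and from each pathway list the 2 of highest coding density and the 2 called genes with the largest ratio, of which some are not reported here. Alternatives were library totals, DESeq2 1.42.0 size factors, other minimum counts, other gene levels, other lengths and an edgeR test with dispersion, given in the closing section.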

Additional observations from a re-analysis of the deposited data

How the results depend on the processing

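Only 2 libraries of 1 group were measured, so replicate spread is known poorly and the binomial calls ignore it. With the edgeR exact test and the common dispersion of the replicates (biological coefficient of variation 0.167), 0 of the 10 genes and 0 of the 76 pathway genes were called, with 1 and 2 at an unadjusted p under 0.05. That dispersion comes from the same 2 libraries and the test called only 11 of 16427 genes, so its counts of 0 say nothing particular about these genes. No paired analysis was possible because both replicates belong to 1 group and no groups are compared. Map1b, Map1s, Mapt and Map6 were called with library totals, DESeq2 size factors, minimum mean counts of 100 or none, and protein coding transcripts alone. The shares of all genes called at these settings were 19.0%, 17.4%, 34.0%, 9.93% and 18.2%, in the same order. With the transcript of highest mean count, 13 pathway genes were called (9.41% of all genes), Map6 was not (log2 ratio -0.29) and Map2 was (-0.28).

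Of 90 alternative values of the 10 log2 ratios, 65 kept their direction and their side of the threshold. The directions that turned belonged to genes with ratios between -0.12 and 0.13. With library totals Map1a was at 0.0024, Map2 at 0.066, Map4 at 0.092 and Dcx at 0.098. With protein coding transcripts alone Map4 was at 0.0007 and Dcx at 0.031, and with the highest transcript Dcx was at 0.11 and Dclk2 at -0.24. After the data were seen, the median ratio of each density class was removed, which called 7 of the 10 genes (19.6% of all coding genes) and turned Map2 to 0.21, Map4 to 0.072 and Dcx to 0.24. Removing the median of density and transcript number together was also added after the data were seen. It called 5 of the 10 genes (9.71% of all coding genes), Map1s, Map2 at -0.10, Mapt, Map4 at -0.21 and Map6. It left Map1b at -0.04 and not called (exact binomial adjusted p = 0.523), and put Dcx at 0.032 and Dclk1 at -0.0019. The share of the 10 genes was 0.894% of the protein coding total when only protein coding transcripts were counted, and 0.725 to 0.796% when 1 replicate was left out. Their share on biotypes other than protein coding was 6.07% with retained introns alone and 10.7 to 11.6% with 1 replicate left out.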
